A study of Mus musculus with 6 samples.

Results

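The 10 genes described here are Aurkc, Dazl, Ddx4, Mael, Sycp1, Sycp3, Tex101, Stra8, Brdt and Tdrd1, genes of germ cells and meiosis that are held silent in adult somatic tissue. They were taken by symbol from the 19938 genes that the array's platform annotation names, and all 10 were measured. The frontal cortex of mice given SAHA was compared with that of mice given vehicle. SAHA (suberoylanilide hydroxamic acid, vorinostat) blocks zinc-dependent histone deacetylases, which remove acetyl groups from histones. The SAHA group held 3 samples from mice injected with 20 mg per kg for 21 days, and the vehicle group, called saline in the sample titles, held 3 samples from mice injected over the same 21 days. All mice were wild-type 129S6/SvEv aged 8 to 12 weeks, and both frontal cortices were dissected 1 day after the last injection. Each sample was hybridised to 1 whole-transcript array, and the small number of arrays limits the precision. The labels do not say that the samples of a group came from separate mice, so the spread between them may be technical.

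Germline genes of this kind are silenced in the early embryo and stay silent in somatic cells. For several of them, Dazl, Ddx4, Mael and Sycp3 among them, methylation of CpG dinucleotides in the promoter is known to take part, together with a Polycomb complex that carries the DNA-binding proteins E2F6 and MGA with its partner MAX. Histone deacetylases 1 and 2 belong to repressor complexes at many silent genes, which is why the genes are of interest after a deacetylase inhibitor. DNA methylation was not measured in these samples, so the silencing that the name of the set implies comes from background knowledge and not from these arrays.

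The members were chosen by symbol, and the probe set of each was selected on its mean signal over the 6 arrays. The SAHA and saline values of these arrays were known when the set was drawn up, and Aurkc gives the set its name because it differed there. Their differences between the groups are therefore given as a description, without the p-value of any member, and support nothing by themselves. Counts of members at a p threshold, calls by limma and intervals appear below as a description too. Where a gene had more than 1 probe set, the set with the highest mean signal over the 6 arrays stood for it, which mattered only for Aurkc, with 4 probe sets, since the other 9 genes had 1 each.

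The deposited values are log2 signals, and an array of this kind gives a background signal for a transcript that is not there. Among 1207 olfactory, vomeronasal and trace amine receptor genes, which serve the nose, 5% of the genes lay below 2.90 and 5% above 6.34. The mean signals of 6 of the 10 germline genes lay between these bounds, from 4.75 for Stra8 to 5.78 for Brdt. The other 4 lay above the upper bound, at 6.39 for Sycp3, 6.40 for Dazl, 6.43 for Sycp1 and 7.64 for Aurkc. The Aurkc value is that of its brightest probe set, whose place on the array is described below. Its other probe sets had means of 6.70, 6.13 and 5.98, and those at 6.13 and 5.98 lay between the bounds. The signal of a probe set also depends on its probes, so these values do not order the transcripts by abundance and do not show which of them is present. The 7 neuron markers, such as the synaptic vesicle gene Snap25, had a median signal of 10.7 to 10.8 in each library, as the cortical label asks. The 10 markers of the somatic cells of testis and ovary lay between 4.97 and 7.62.

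Saline replicate 1 and SAHA replicate 3 stood apart in X- and Y-linked genes. Only saline replicate 1 had a high Xist signal, at 10.9, while 5 libraries lay from 4.63 to 4.88 for this RNA of the inactive X chromosome. On the Y chromosome, Uty was at 6.74 in SAHA replicate 3, against 7.94 and 8.24 in the other SAHA libraries and 8.10 to 8.19 in saline. Saline replicate 1 was also the library with the highest value for 5 of the 10 germline genes, and SAHA replicate 3 for 3 of them. Differences of the members and counts of the lists are also given without both libraries.

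The promoters show what sets the members apart from each other in sequence. RefSeq (GRCm38.p6) gave a promoter window for all 10, with 250 bases before and 50 after the start of the gene, and 12 windows in all, since Tdrd1 has 3 annotated starts. Printed here are the windows of Aurkc, which gives the set its name, of Ddx4, which holds the most CpG dinucleotides, and of Sycp3, which holds both motifs described below. Each runs 5′ to 3′ on the strand of the gene, with CpG dinucleotides in capitals. They lie at chr7:6995135-6995434 on the plus strand for Aurkc, chr13:112652261-112652560 on the minus strand for Ddx4 and chr10:88459337-88459636 on the plus strand for Sycp3.
Aurkc: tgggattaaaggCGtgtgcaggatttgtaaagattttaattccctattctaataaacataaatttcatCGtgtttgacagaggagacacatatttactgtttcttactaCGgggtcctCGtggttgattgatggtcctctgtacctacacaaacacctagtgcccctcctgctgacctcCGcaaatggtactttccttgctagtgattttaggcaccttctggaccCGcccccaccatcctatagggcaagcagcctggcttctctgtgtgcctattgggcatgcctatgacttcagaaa
Ddx4: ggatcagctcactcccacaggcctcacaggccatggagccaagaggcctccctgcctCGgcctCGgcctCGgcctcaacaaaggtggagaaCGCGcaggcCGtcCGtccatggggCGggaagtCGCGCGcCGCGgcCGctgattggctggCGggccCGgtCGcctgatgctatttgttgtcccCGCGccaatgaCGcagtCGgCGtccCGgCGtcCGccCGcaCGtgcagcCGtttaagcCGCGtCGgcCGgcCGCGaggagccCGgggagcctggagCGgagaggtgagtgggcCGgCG
Sycp3: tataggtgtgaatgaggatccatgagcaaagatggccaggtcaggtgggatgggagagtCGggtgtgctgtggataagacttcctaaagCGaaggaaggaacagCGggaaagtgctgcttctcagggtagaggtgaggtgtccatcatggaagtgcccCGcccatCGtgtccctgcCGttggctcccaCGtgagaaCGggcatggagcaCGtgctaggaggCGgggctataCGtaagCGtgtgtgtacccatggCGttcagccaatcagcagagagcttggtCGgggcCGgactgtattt

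The Aurkc window held 6 CpG dinucleotides and the Ddx4 window 38. Over all 32851 mouse promoter windows the median was 7, with quartiles of 3 and 20, so 43.6% of windows held fewer than Aurkc and 95% fewer than Ddx4. Dazl had 28, Mael 24, Brdt 23, Sycp1 21, Tex101 19, Sycp3 15 and Stra8 10, and the Tdrd1 windows had 20, 25 and 3. The ratio of observed to expected CpG was 0.381 for Aurkc and 0.43 for Stra8, and between 0.666 and 0.978 for the other genes other than the third Tdrd1 start, at 0.216. Aurkc and Stra8 were thus the members whose main windows are poorest in CpG.

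**Figure D1:**
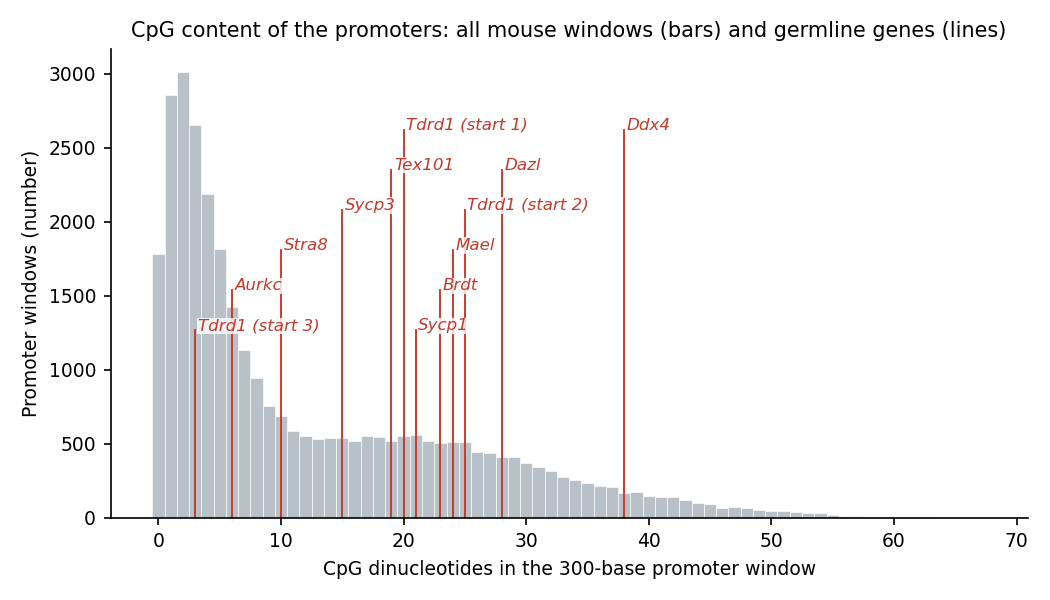
Number of mouse promoter windows (y axis) by their count of CpG dinucleotides in 300 bases (x axis). Bars are all 32851 RefSeq windows and lines mark the 12 windows of the 10 germline genes. Aurkc, at 6, lies near the median of 7, and Ddx4, at 38, lies above 95% of all windows.

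2 short motifs were counted in the same windows on both strands: TCCCGC, the core of E2F sites, and CACGTG, an E-box of the kind that MAX and its partners bind. Each holds a CpG itself, and neither overlaps the other. Ddx4, Mael, Sycp1 and Sycp3 held both, where 1.99% of all windows do. TCCCGC was in 4 of the 10 genes and in 20% of all windows, and CACGTG was in 6 genes, with Brdt and Tdrd1 added, and in 7.15% of all windows. In Sycp3 the E-boxes begin at bases -64 and -43 and the E2F-type motif at base -147, counted from the gene start. Aurkc, Dazl, Tex101 and Stra8 held neither motif. Such matches describe the letters of the window and are not binding sites.

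The germline genes had differences in both directions. Of the 10, 6 had a higher mean in SAHA and 4 a lower one, and the differences ran from 0.42 log2 for Aurkc to -0.32 for Sycp3, with a median of 0.064. Among all 19938 genes 52.9% were higher in SAHA, but this share followed the signal. Among the 11252 other genes between the lowest and the highest mean signal of the members it was 67.6%, with a median difference of 0.068. Without saline replicate 1 and SAHA replicate 3, 7 of the 10 were higher, at a median of 0.087, and 62.8% of the genes in the same range. After quantile normalization 5 were higher, at a median of -0.027, and 50.9% of the genes in that range, so the count depended on the scaling. In a whole cortex, fewer cells with a transcript and less of it per cell cannot be told apart.

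limma with Benjamini-Hochberg adjustment over all genes called 0 of the 10 germline genes and 0 of 19938 genes, or 0%. With a variance trend it called 28 genes, 1 of them a member, Aurkc by its brightest probe set. At an unadjusted p under 0.05, where 17.4% of all genes lie, there were 3 members higher in SAHA, where 11.9% of all genes are found, and 1 lower, where 5.56% are found. In 3 members, Aurkc, Brdt and Tdrd1, all SAHA values lay above all saline values, which held for 13.6% of all genes and 19.5% of those in the same range of signal. In 1 member, Sycp3, all SAHA values lay below all saline values, which held for 10.4% of all genes and 5.48% of those in that range. The contrast took part in the choice of the members, so nothing is read from these counts.

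**Figure D2:**
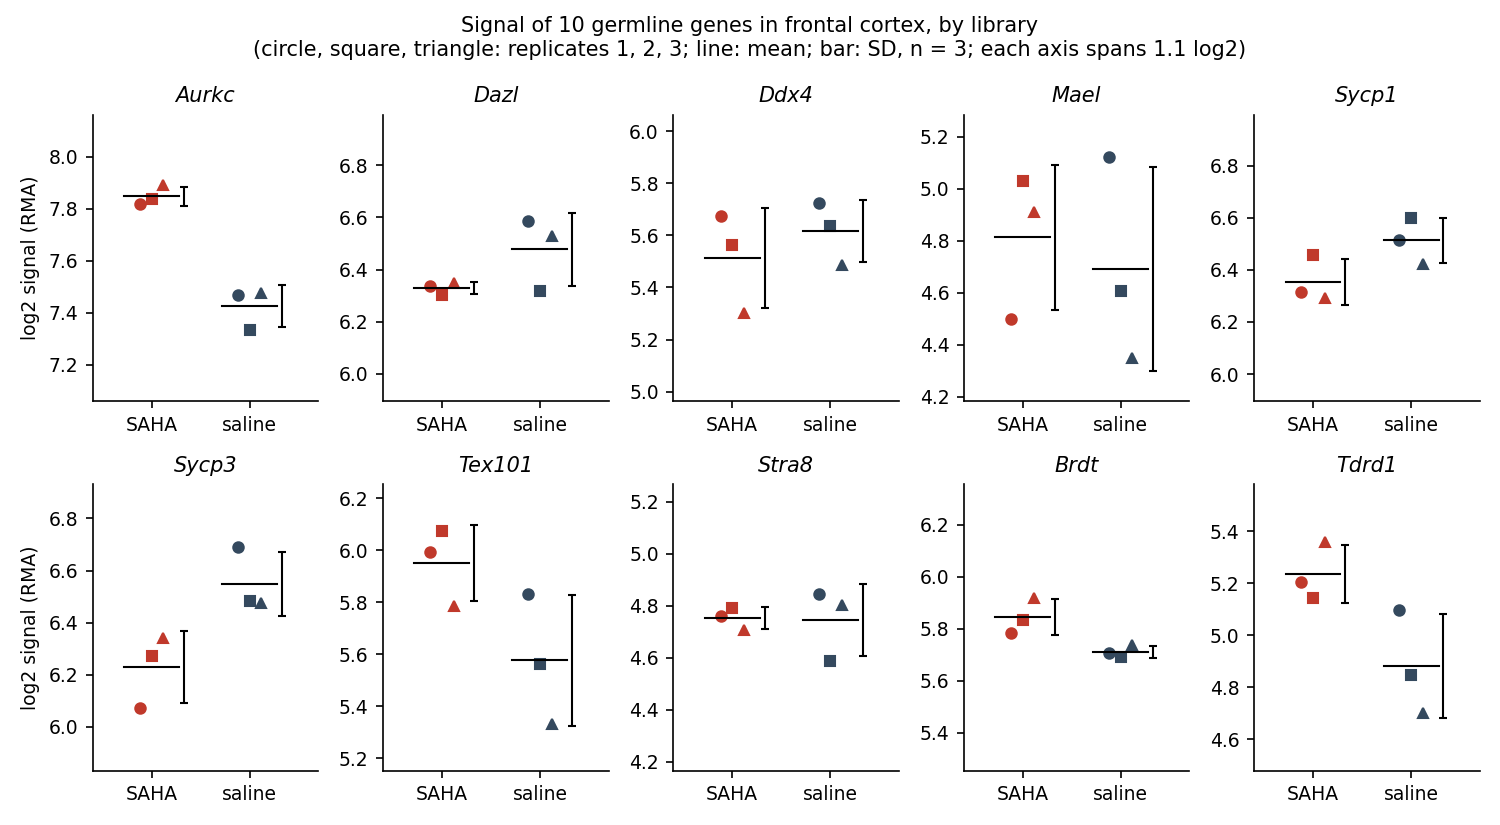
Log2 signal (y axis) of the 10 germline genes in the 3 SAHA and 3 saline libraries (x axis), with the mean as a line and the SD as a bar (n = 3). Every panel spans the same height. The groups lie apart in Aurkc, Brdt, Tdrd1 and Sycp3 and overlap in the other 6 genes.

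**Figure D3:**
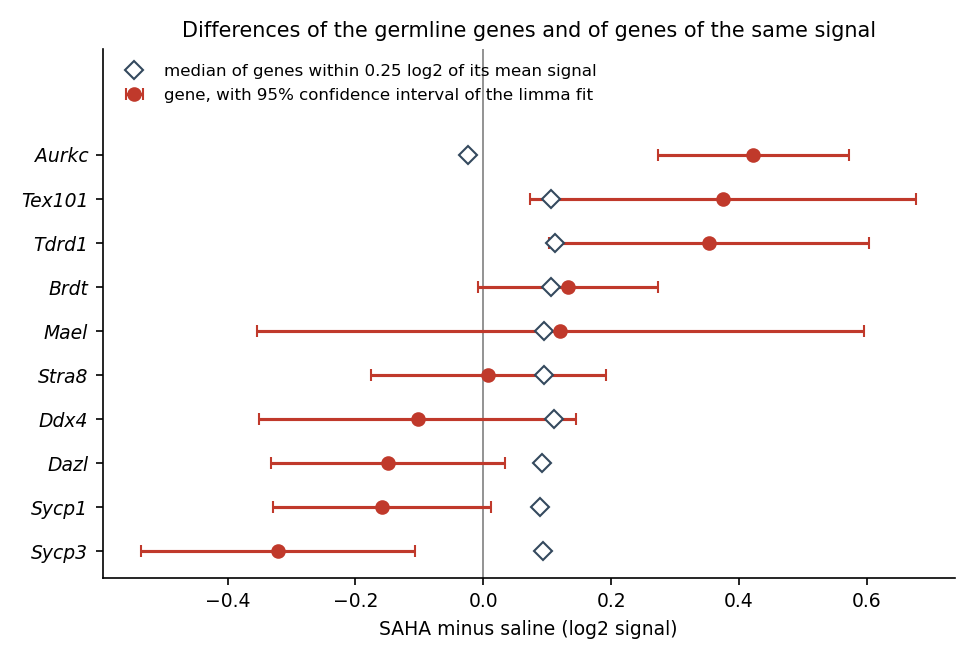
SAHA minus saline difference in log2 signal (x axis) of each germline gene (circles, with the 95% confidence interval of the limma fit), beside the median difference of the genes within 0.25 log2 of its mean signal (diamonds). The diamonds lie near 0.10 for the 9 dimmer genes and at -0.024 for Aurkc.

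Aurkc encodes Aurora kinase C, the Aurora kinase of meiotic cells, where it takes the place of Aurora B in the chromosomal passenger complex. Its brightest probe set, 10512680, was at 7.82, 7.84 and 7.89 in the SAHA libraries, against 7.47, 7.33 and 7.48 in the saline libraries. The groups did not overlap, and the difference of 0.42 (SE 0.064), a signal 1.34-fold higher in SAHA, was several times the spread within either group. Among 1935 genes within 0.25 log2 of its mean signal, 5 had a difference at least as high, and the median of those genes was -0.024. Over all genes, 182 (0.913%) had a difference at least as high. It was 0.42 as well without saline replicate 1 and SAHA replicate 3, and 0.44 after quantile normalization.

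The other 3 Aurkc probe sets gave smaller differences. Probe set 10560004 was at 6.13, 5.99 and 6.22 in SAHA, against 5.95, 5.83 and 5.76 in saline, a difference of 0.27 (SE 0.087). Probe set 10559989 was at 6.28, 6.09 and 6.33 in SAHA, against 6.09, 6.005 and 5.97 in saline, a difference of 0.21 (SE 0.082). In both, all SAHA values lay just above all saline values. Probe set 10549889 was at 6.72, 6.69 and 6.83 in SAHA, against 6.68, 6.58 and 6.70 in saline, with overlapping groups and a difference of 0.093 (SE 0.067). Genes of the same signal as these 3 had median differences of 0.10, 0.10 and 0.065, and 12.0%, 20.8% and 42.8% of those genes differed by at least as much. With the mean of the 4 probe sets the Aurkc difference was 0.25.

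The brightest probe set also stood apart in its place on the array. Probe set numbers of this array mostly follow the genome, and for 16326 probe sets the 5 named probe sets on each side all pair with genes of 1 chromosome. Of these, 404 (2.47%) are annotated to a gene on another chromosome. Aurkc lies on chromosome 7, and 9 of the 10 flanking probe sets of 10549889, 10559989 and 10560004 belong to that chromosome. For 10512680, 0 of 10 do and all 10 belong to chromosome 4, with Pax5 and Zbtb5 next to it. The other 9 germline genes had between 8 and 10 of 10 flanking probe sets on their own chromosome. Pax5 differed by 0.032 (SE 0.071) and Zbtb5 by 0.12 (SE 0.071) between SAHA and saline. Which transcript 10512680 binds was not tested, since no probe sequences were used here.

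**Figure D4:**
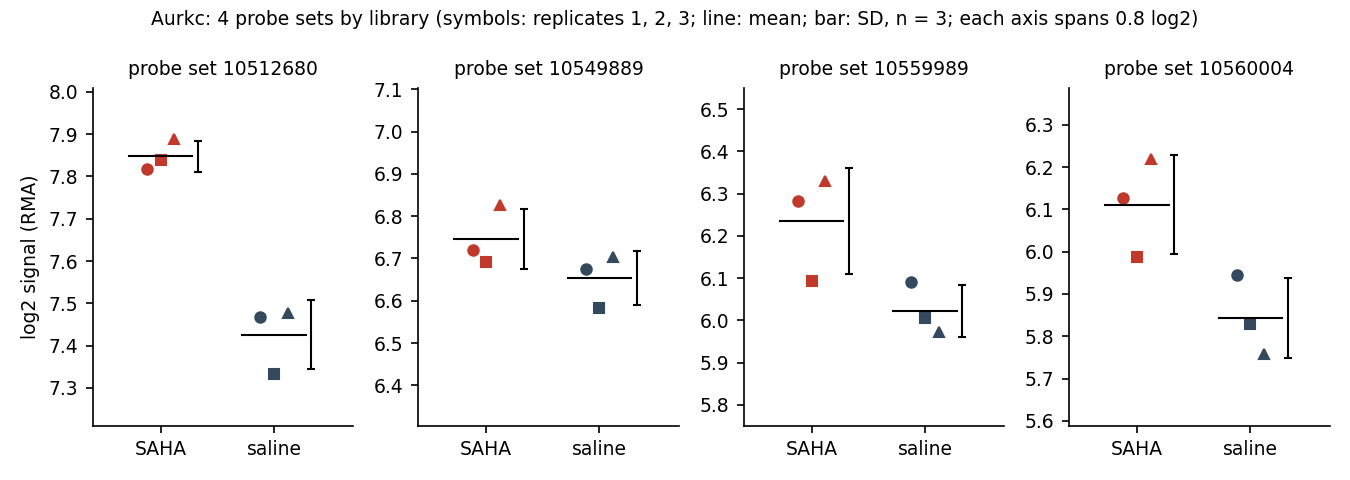
Log2 signal (y axis) of the 4 probe sets annotated to Aurkc in the SAHA and saline libraries (x axis), with the mean as a line and the SD as a bar (n = 3), each panel spanning the same height. The gap between the groups is 0.42 in 10512680, whose flanking probe sets belong to chromosome 4, and between 0.093 and 0.27 in the other 3.

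The genes whose centred values over the 6 arrays lay closest to those of the brightest Aurkc probe set were Tulp1, Gpr31b, Nxpe5, Cypt3 and Psapl1. Their root mean square distance from Aurkc was 0.032 log2 for Tulp1 and 0.048 for Psapl1, the fifth. All 5 were higher in SAHA, by 0.36 to 0.42, as the rule that picked them requires.

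The synaptonemal complex joins homologous chromosomes in meiosis, and both of its members here had lower means in SAHA. Sycp3, which builds the lateral elements, was at 6.07, 6.27 and 6.34 in SAHA, against 6.69, 6.48 and 6.47 in saline. All SAHA values were below all saline values, with a difference of -0.32 (SE 0.093), which was -0.31 without saline replicate 1 and SAHA replicate 3. Of 2417 genes of the same signal, 17 had a difference as low. Sycp1, the transverse filament protein, was at 6.32, 6.46 and 6.29 in SAHA, against 6.52, 6.60 and 6.42 in saline, where the second SAHA library lay above the third saline library. Its difference was -0.16 (SE 0.074), and 4.95% of genes of the same signal were as low. Stra8, which retinoic acid induces as germ cells enter meiosis, was at 4.76, 4.79 and 4.71 in SAHA, within its saline values of 4.84, 4.59 and 4.80, with a difference of 0.0077 (SE 0.079). Its sign turned after quantile normalization, at -0.084. Without saline replicate 1 and SAHA replicate 3, Stra8 was at 0.080 and Sycp1 at -0.13.

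The RNA-binding members also overlapped between the groups. Dazl, which controls translation in germ cells, was at 6.34, 6.30 and 6.35 in SAHA, against 6.59, 6.32 and 6.53 in saline. The SAHA libraries were tightly grouped, with an SD of 0.024 against 0.14 in saline, and 1 saline library lay among them. The difference was -0.15 (SE 0.079), or -0.10 without saline replicate 1 and SAHA replicate 3. Ddx4, the germ cell RNA helicase known as vasa in flies, was at 5.68, 5.56 and 5.30 in SAHA, against 5.72, 5.64 and 5.49 in saline, a difference of -0.10 (SE 0.11). Its sign rested on SAHA replicate 3: it was 0.0027 without that library and 0.056 without that library and saline replicate 1.

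The piRNA pathway silences transposons in germ cells. Tdrd1, a Tudor-domain scaffold that binds Piwi proteins, was at 5.20, 5.14 and 5.36 in SAHA, against 5.10, 4.85 and 4.70 in saline. The groups were separated by a gap smaller than their own spread, and the difference was 0.35 (SE 0.11), or 0.25 after quantile normalization. Genes of the same signal had a median of 0.11, and 7.32% of them were at least as high. Mael, another factor of the pathway, varied most, with SAHA values of 4.50, 5.03 and 4.91 and saline values of 5.12, 4.61 and 4.35. Its difference was 0.12 (SE 0.21). It was -0.051 without saline replicate 3 and 0.29 without saline replicate 1 and SAHA replicate 3, where Tdrd1 was at 0.40.

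Tex101, a glycoprotein of the germ cell surface, was at 5.99, 6.07 and 5.79 in SAHA, against 5.83, 5.56 and 5.33 in saline, so that saline replicate 1 lay above SAHA replicate 3. The difference was 0.37 (SE 0.13), and it was 0.59 without these 2 libraries and 0.28 after quantile normalization. Of 1913 genes of the same signal, 70 (3.66%) were at least as high. Brdt, the testis member of the BET family that reads acetylated histones, was at 5.78, 5.83 and 5.92 in SAHA, against 5.71, 5.69 and 5.74 in saline. The groups did not overlap, yet the difference of 0.13 (SE 0.061) was close to the median of 0.11 among genes of the same signal, 42.4% of which were at least as high. It was 0.029 after quantile normalization and 0.093 without saline replicate 1 and SAHA replicate 3.

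**Figure D5:**
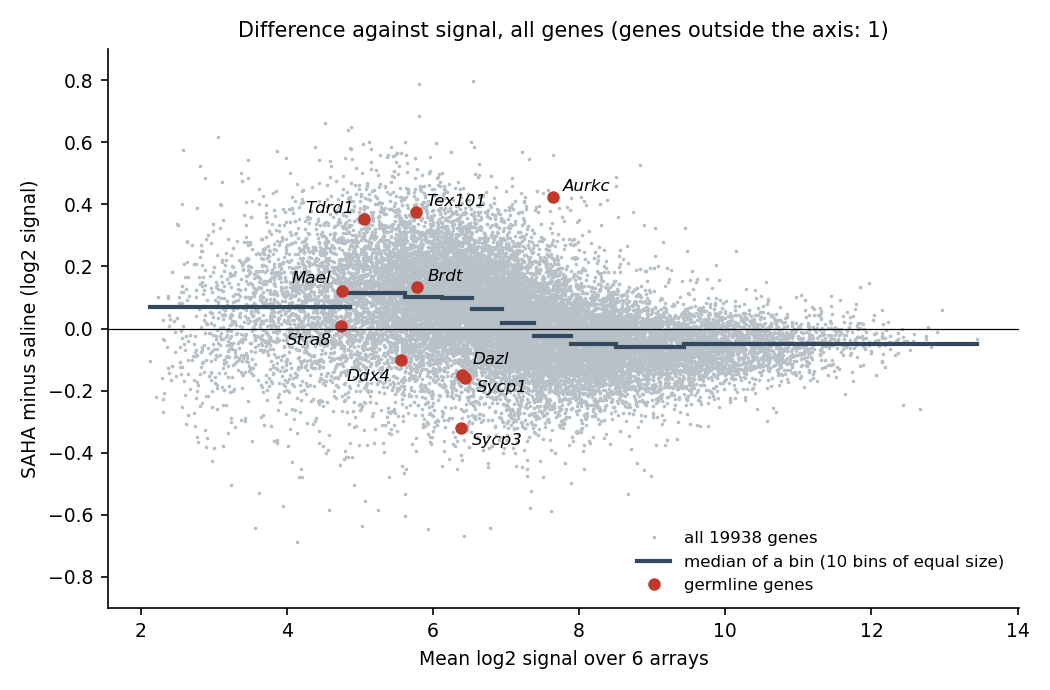
SAHA minus saline difference (y axis, log2) against mean log2 signal over the 6 arrays (x axis) for all 19938 genes, with the median of each of 10 bins of equal size by signal as a bar and the germline genes as circles. 1 gene lies outside the axis. The medians are 0.069 to 0.11 in the 4 dimmest bins, which hold 9 of the germline genes, and Aurkc lies in the seventh, whose median is -0.024.

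Related genes of the same pathways are given by lists, none of which holds a gene called by limma with Benjamini-Hochberg adjustment. Of 48 other early germline and meiosis genes measured, 30 were higher in SAHA and 18 lower, or 62.5% higher. That share was 67.6% in the signal range of the members. Among all genes with a signal of 5.62 to 6.12, around the list's median of 5.73, it was 75.7%. The list itself spanned signals of 2.83 to 9.17. After quantile normalization 22 of the 48 were higher. Without saline replicate 1 and SAHA replicate 3, 27 were higher. An unadjusted limma p under 0.05 was reached by 10 higher and 4 lower genes of the 48. Over all genes 11.9% were higher and 5.56% lower at that threshold. In the signal range of the members it was 2015 higher and 458 lower of 11252 genes, and nothing is read from the count. The list genes of smallest p went both ways. Dppa4, a nuclear protein of pluripotent cells, was at 6.21 ± 0.15 in SAHA and 5.76 ± 0.073 in saline (SD, n = 3). Dppa3, which protects methylation in the early embryo, was at 5.25 ± 0.065 in SAHA and 4.87 ± 0.18 in saline (SD, n = 3). Taf7l, a testis form of a TFIID subunit, was at 6.01 ± 0.047 in SAHA and 6.43 ± 0.16 in saline (SD, n = 3).

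Of 20 measured genes of the piRNA pathway beyond the members, 12 were higher and 8 lower, also without both libraries that stood apart. With all libraries this is 60% higher, against 67.6% in the signal range of the members. Among all genes with a signal of 5.62 to 6.12, around the list's median of 5.99, it was 75.7%. Mybl1, the transcription factor of piRNA genes in meiotic cells, differed by -0.40 (SE 0.090), Pld6, a mitochondrial enzyme of piRNA formation, by 0.22 (SE 0.056), and Piwil1, a Piwi protein, by 0.25 (SE 0.090). Late spermatid genes, which serve the maturing sperm, were higher for 22 of 29, or 75.9%, with a median of 0.085. Their median signal was 5.69. Among all genes with a signal of 5.62 to 6.12, around that median, 75.7% were higher, at a median of 0.10. The spermatid genes spanned signals of 4.34 to 8.67, and a share matched to each gene's signal was not taken. After quantile normalization 16 of the 29 were higher. Without both libraries the count of spermatid genes was 22 as well, at a median of 0.050. Tcp11 differed by 0.40 (SE 0.088), Prm3 by 0.26 (SE 0.081) and Hils1, a spermatid linker histone, by 0.31 (SE 0.10).

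The 22 known repressors of germline genes had a median signal of 8.19. Among all genes with a signal of 7.89 to 8.51, 30.9% were higher in SAHA, at a median of -0.050. Of the 22 repressors, 6 (27.3%) were higher and 16 lower, with a median of -0.073. Their signals spanned 6.77 to 10.91, so the share of 30.9% is that around the list's median signal only. After quantile normalization 9 were higher, at a median of -0.024, and without saline replicate 1 and SAHA replicate 3 also 9, at -0.027. Of the complex that carries E2F6 and MGA, E2f6 differed by -0.15 (SE 0.066) and Mga by -0.083 (SE 0.065). Pcgf6 differed by -0.15 (SE 0.055), L3mbtl2 by -0.23 (SE 0.079) and Rnf2 by -0.27 (SE 0.10). The last 3 are named because they had the smallest p of the list, so they do not stand for the complex. Other subunits are not given here, and the highest difference in the list was 0.17. In E2f6, Pcgf6, L3mbtl2 and Rnf2 the SAHA values lay below the saline values without overlap, as they did for 6 genes of the list. This held for 10.4% of all genes but for 5.48% in the dimmer signal range of the members, so the share was higher among the remaining genes. It was not taken at the signal of this list, and nothing is read from the 6. Setdb1, a histone methyltransferase, differed by -0.064 (SE 0.070).

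Of 19 measured enzymes and readers of DNA methylation, 11 (57.9%) were higher and 8 lower, with a median of 0.0046. Their median signal was 7.89. Among all genes 42.3% were higher at signals of 7.38 to 7.89, and 30.9% at 7.89 to 8.51. The list itself spanned signals of 5.58 to 10.5, and nothing is read from its share. After median centring 6 of the 19 were higher, and after quantile normalization 13. Without saline replicate 1 and SAHA replicate 3, 8 were higher and 11 lower, at a median of -0.030, so the balance of this list turned there and with median centring. The methyltransferases differed by 0.033 (SE 0.058) for Dnmt1, 0.0016 (SE 0.064) for Dnmt3a, -0.051 (SE 0.077) for Dnmt3b and 0.17 (SE 0.092) for Dnmt3l, a germ cell cofactor. Uhrf1, which brings Dnmt1 to replicating DNA, was at 6.22, 6.33 and 6.32 in SAHA, against 6.02, 5.85 and 5.98 in saline. Its difference was 0.34 (SE 0.070), with no overlap. Cxxc1, which binds unmethylated CpG dinucleotides, was at 7.67, 7.75 and 7.66 in SAHA, against 7.77, 7.77 and 7.82 in saline, a difference of -0.099 (SE 0.058), again with no overlap.

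The relatives of Aurkc and Brdt were compared last. Of 10 genes of the Aurora kinases and the passenger complex, 7 were higher in SAHA. This is 70%, against 67.6% in the signal range of the members. Among all genes with a signal of 5.62 to 6.12, around the list's median of 5.99, it was 75.7%. After quantile normalization 4 of the 10 were higher, and 5 without saline replicate 1 and SAHA replicate 3. Aurkb, the mitotic Aurora kinase of the same complex, was at 6.51, 6.41 and 6.27 in SAHA, against 6.15, 6.14 and 6.02 in saline, a difference of 0.30 (SE 0.079). Birc5, the survivin subunit, differed by 0.23 (SE 0.090), Sgo2a, a protector of centromere cohesion, by -0.24 (SE 0.079), and Aurka, the spindle pole kinase, by 0.027 (SE 0.092). Markers of dividing cells were higher for 6 of 9 genes, or 66.7%, against 67.6% in the signal range of the members. Among all genes with a signal of 5.62 to 6.12, around the markers' median of 5.71, it was 75.7%. The library medians of these markers were 5.69 to 5.79 in SAHA and 5.62 to 5.70 in saline. The part of dividing cells in these values was not tested. Brd2 and Brd3, the BET proteins of somatic cells, differed by -0.093 (SE 0.062) and -0.031 (SE 0.059). Of the 15 measured relatives of the members taken as a list, 7 (46.7%) were higher and 8 lower, or 8 and 7 without both libraries. Among all genes with a signal of 7.89 to 8.51, around the list's median of 8.00, 30.9% were higher. The list itself spanned signals of 3.50 to 11.45. Dazap1, a partner of Dazl, differed by 0.25 (SE 0.070), while Boll, a relative of Dazl, differed by -0.13 (SE 0.073).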

How the data were processed

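RNA of the frontal cortex was measured in 6 samples, from 200 ng of total RNA each, on an Affymetrix whole-transcript array. The deposited values are log2 signals per probe set made by the authors with Affymetrix Expression Console and RMA, per the submitters' processing notes, and versions are not given in the sources used here. Of 35556 probe sets, 21789 pair with 1 gene symbol in the platform annotation, 1621 with several and 12146 with none. The brightest single-symbol probe set by mean over 6 arrays stood for a gene, which gave 19938 genes. Listed symbols were brought to RefSeq symbols, and Entrez identifiers changed 0 symbols. All sample columns were used (0 left out).

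Groups came from the sample titles. The difference, SAHA minus saline, came from a moderated linear model (limma 3.58.1, R 4.3.3) that held no block, and dim probe sets were kept. The two-sided p-values had Benjamini-Hochberg adjustment over all genes and a threshold of 0.05, and SE and 95% intervals are those of the moderated fit. Genes of the same signal are those within 0.25 log2 of a member's mean. Promoters are from RefSeq.

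The members and lists were chosen with earlier results of these data known. From each list the text names the 3 genes of smallest unadjusted p and a fixed set of regulators, plus the 5 genes closest to Aurkc, predicted genes and chemosensory receptors left out. Some genes of the lists were not analysed here. Same-numbered samples did not deviate together, with correlations of -0.105, -0.0792 and 0.015 across genes. The alternatives were 3 scalings, averaging over probe sets, a variance trend, a filter at the median signal, all probe sets, a replicate block and libraries left out. The other Aurkc probe sets, the set without Aurkc and the windows of signal were added after the data were seen.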

Additional observations from a re-analysis of the deposited data

How the results depend on the processing

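Over all genes limma called 0, and 28 with a variance trend, 31 with a robust trend and 27 when only genes no dimmer than the median were tested. In each of these 3 fits 1 germline gene was called, Aurkc, which the choice of the set had singled out. Probe set 10512680 stood for Aurkc there, and all 10 of its flanking probe sets belong to chromosome 4. By its brightest probe set, Aurkc was also the 1 member no dimmer than the median. Its other probe sets, at 6.70, 6.13 and 5.98, lay below the median signal of 6.94. In the fit without these changes 4 members lay at an unadjusted limma p under 0.05, as did 17.4% of all genes. The contrast took part in the choice of the members, so nothing is read from this count. The count of called genes was 0 with each of the 6 libraries left out, over all genes and among the members. With the replicate number as a block limma called 0 genes and 0 members. The Aurkc difference stayed at 0.42, since a balanced block cannot change it. The number of members higher in SAHA lay between 5 and 7 under 14 alternatives, and between 5 and 7 with 1 library left out. The trend fits and the replicate block could not move this number, since they leave the differences unchanged. Averaging over probe sets could do so only through Aurkc. The median difference of the members was 0.064 as deposited, but -0.027 with quantile normalization and also -0.027 with cyclic loess. It was 0.025 after median centring, 0.0077 without Aurkc, and between -0.0074 and 0.094 with 1 library left out.

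The sign of 7 of the 10 members held under every alternative run for them. The trend fits and the replicate block leave every difference unchanged and could turn no sign. Averaging over probe sets could do so only for Aurkc. Stra8 turned negative after median centring, at -0.031, with quantile normalization, at -0.084, with cyclic loess, at -0.083, without SAHA replicate 2, at -0.012, and without saline replicate 2, at -0.071, and was 0.057 at its highest with 1 library left out. Ddx4 lay between -0.18 and 0.0027 with 1 library left out and was at 0.056 without saline replicate 1 and SAHA replicate 3. Mael lay between -0.051 and 0.33 with 1 library left out. The causes were not tested. Signals within the bounds of the receptor genes that serve the nose limit what the array can show for 6 members. Sycp3, Dazl and Sycp1 lay just above the upper bound, with 95.9% to 96.5% of the receptor genes dimmer, so the limit reaches them as well. The Aurkc probe sets at 6.13 and 5.98 lay within the bounds.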
